A study of Mus musculus with 6 samples.

Results

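The 7 genes of regulatory and activated T cells were followed across the immune cells of liver metastases: Ctla4, Icos, Tnfrsf4, Tnfrsf18, Ikzf2, Izumo1r and Nrp1. They were taken by symbol from the deposited single-cell tables, and all 7 members were present in each of the 3 tables, 1 per site, which hold 4486 genes (adjacent tissue), 2669 genes (micrometastasis) and 2643 genes (macrometastasis). Balb/c mice had received 4T07 mammary tumor cells by intracardiac injection, and CD45+ cells (the pan-leukocyte surface marker) were sorted from dissected liver. The tumor cells were either Ctrl or Tim3-KD, in which Tim3 was knocked down in the tumor cells and not in the host. The 6 libraries, 1 per group, were Ctrl and Tim3-KD adjacent tissue (AT, liver tissue beside the lesions with no tumor in it, day 3), Ctrl and Tim3-KD micrometastasis (day 3), and Ctrl and Tim3-KD macrometastasis (day 12). A library came from pooled mice and no group had a second library, so differences between mice, sorts or libraries cannot be told apart from those between groups, and no test within a site was possible. A Tim3-KD difference shared by the 3 sites was not tested. The intervals given are 95% exact Poisson or binomial intervals and cover counting error only. Because tumor cells were sorted out, the targeted gene does not check the Ctrl and Tim3-KD labels here.

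CTLA-4 and ICOS are related receptors of the CD28 family that act in opposite directions. ICOS binds ICOS ligand on antigen-presenting cells and gives a costimulatory signal, whereas CTLA-4 takes CD80 and CD86 away from CD28 and restrains T cells. Tnfrsf4 encodes OX40 and Tnfrsf18 encodes GITR, a pair of TNF-receptor family members that signal through TRAF adaptors to NF-kB. Ikzf2 encodes Helios, a zinc-finger transcription factor found in many regulatory T cells and also in other blood lineages. Izumo1r encodes folate receptor 4, a surface protein of regulatory and some antigen-experienced CD4 T cells, and Nrp1 encodes neuropilin-1, a receptor for semaphorins and VEGF on endothelium that is also carried by thymus-derived regulatory T cells. Regulatory T cells are defined by the transcription factor Foxp3. That gene is held by none of the 3 tables, so cells could not be called regulatory here, and the members are described in T cells as a whole and in sub-clusters named by their leading genes.

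Several members are neighbors in the mouse genome (GRCm38, GENCODE annotation). Ctla4 (chr1:60887000-60915832, plus strand) lies 113640 bases beyond the end of Cd28 and 62094 bases before Icos (chr1:60977927-61000320, plus strand), and Ikzf2 is on the same chromosome (chr1:69531214-69687245, minus strand). Tnfrsf4 (chr4:156013843-156016612, plus strand) and Tnfrsf18 (chr4:156026164-156028895, plus strand) are separated by 9551 bases. Izumo1r is at chr9:14885814-14903949 (minus strand) and Nrp1 at chr8:128358604-128503363 (plus strand). The RefSeq promoter table (GRCm38.p6, 250 bases before to 50 after the start) matched 5 of the 7 genes and did not match Icos or Ikzf2. The promoters of Ctla4 (chr1:60908775-60909074, plus strand), Tnfrsf4 (chr4:156013445-156013744, plus strand), Tnfrsf18 (chr4:156026072-156026371, plus strand) and Izumo1r (chr9:14903718-14904017, minus strand) are printed, the 4 matched genes whose levels went together across cell classes. Capitals mark GGAAA, the core bound by NFAT factors, on either strand.
Ctla4: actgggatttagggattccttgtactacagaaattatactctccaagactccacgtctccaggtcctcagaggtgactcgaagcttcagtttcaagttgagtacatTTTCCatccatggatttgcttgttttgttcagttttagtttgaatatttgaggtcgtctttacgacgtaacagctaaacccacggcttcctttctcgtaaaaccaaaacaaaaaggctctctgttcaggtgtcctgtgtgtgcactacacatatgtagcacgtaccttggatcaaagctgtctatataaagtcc
Tnfrsf4: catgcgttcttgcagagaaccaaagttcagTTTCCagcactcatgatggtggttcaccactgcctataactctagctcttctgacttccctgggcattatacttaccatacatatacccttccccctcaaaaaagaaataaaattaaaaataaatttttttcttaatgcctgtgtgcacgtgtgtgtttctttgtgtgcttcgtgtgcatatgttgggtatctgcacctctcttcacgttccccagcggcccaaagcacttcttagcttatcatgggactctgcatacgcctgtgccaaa
Tnfrsf18: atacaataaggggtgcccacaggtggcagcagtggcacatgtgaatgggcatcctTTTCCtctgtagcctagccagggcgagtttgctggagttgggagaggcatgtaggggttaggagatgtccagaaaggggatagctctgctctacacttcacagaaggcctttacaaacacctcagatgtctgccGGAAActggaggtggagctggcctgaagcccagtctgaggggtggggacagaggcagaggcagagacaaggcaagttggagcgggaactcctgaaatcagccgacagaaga
Izumo1r: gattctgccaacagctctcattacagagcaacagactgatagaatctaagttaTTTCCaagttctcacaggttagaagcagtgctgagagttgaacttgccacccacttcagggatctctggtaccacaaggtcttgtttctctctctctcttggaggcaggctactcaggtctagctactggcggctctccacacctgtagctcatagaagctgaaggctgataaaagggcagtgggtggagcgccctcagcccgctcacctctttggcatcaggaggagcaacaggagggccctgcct
The core occurred 1 time in the Ctla4 window, 1 time each in those of Tnfrsf4 and Izumo1r and 2 times in that of Tnfrsf18, and 61.3% of 32851 promoters of the same length hold it. A RUNX core (TGTGGT, in 16.8% of promoters) had 1 match in the Izumo1r window and an AP-1 site (TGANTCA, in 7.81%) had none in the 4 windows, both searched on both strands. The Ctla4 window also held TATAAA (13.6% of promoters). GC content was 42%, 43.7%, 55.3% and 52.3% for Ctla4, Tnfrsf4, Tnfrsf18 and Izumo1r, against a median promoter GC of 52.7%. These matches describe letters and not bound sites.

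The 6 libraries held 23008 cells with 7086531 to 79971648 unique molecules (UMIs) in all, and the AT Tim3-KD library stood apart with 542 cells against 1803 to 5502 in the others. Clustering without the 7 members gave 25 clusters, and 3 of them, with 2112 cells, were called T-like from Cd3 and T cell receptor genes. T-like cells made up 9.82% of the AT Ctrl library and 22.7% of AT Tim3-KD, 8.32% and 6.83% of micrometastasis, and 9.24% and 10.6% of macrometastasis. The AT Tim3-KD library also differed in other classes, with 3.51% mature neutrophil-like cells against 32.2% in AT Ctrl, 19.6% Kupffer-like against 1.72%, and 6.46% endothelial-like against 0.111%. Libraries shared 0 to 11 cell barcodes with each other. Every level below is in UMIs per 1000000 UMIs of the cells named (CPM), recovered from the deposited scaled scores, and because reads were counted at transcript 3' ends with introns included, levels are compared between cells and not between genes.

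In these sorts 5 members were T cell genes, Ikzf2 was shared with other lineages and Nrp1 was mostly elsewhere. T-like cells held 63.7% to 93.7% of a library's Ctla4 UMIs, 63.3% to 92.4% of Tnfrsf4, 59.6% to 82.9% of Izumo1r, 54.5% to 69.5% of Tnfrsf18, 52.6% to 91.1% of Icos and 36.9% to 83.3% of Ikzf2. For Nrp1 the share was only 1.22% to 6.80%. Summed over libraries, Ctla4 was at 198 CPM in T-like cells (interval 191 to 205) and next at 10.2 CPM in conventional dendritic-like cells, 7.66 in NK or ILC1-like cells and 7.62 in plasmacytoid dendritic-like cells. Those last 3 classes had overlapping intervals. Tnfrsf4 was at 77.0 CPM in T-like cells and next at 7.96 in conventional and 6.73 in plasmacytoid dendritic-like cells. Izumo1r was at 42.7 CPM in T-like cells and next at 7.03 CPM in B-like cells.

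Beyond T cells, 4 members had a second cell class of their own. Tnfrsf18 was at 168 CPM in T-like cells and 101.9 CPM in NK or ILC1-like cells, innate lymphocytes in which GITR is also known, and a UMI was found in 181 of 513 such cells. T cell transcripts were more often found in those 181 cells than in the 332 without Tnfrsf18: Cd3g in 23.2% against 7.53%, Trac in 17.1% against 6.33% and Cd3e in 3.31% against 0.904%, with 19.9% against 14.2% of cells over the doublet score of 0.15. Their part in the Tnfrsf18 level was not tested. Icos was at 161 CPM in T-like and 39.4 CPM (37.0 to 42.0) in Kupffer-like cells, the resident macrophages of the liver. Across libraries the Kupffer-like level of Icos was 45.2 and 49.3 CPM in AT (Ctrl, then Tim3-KD), 21.9 and 30.5 CPM in micrometastasis, and 41.5 and 42.4 CPM in macrometastasis, so no library lacked it. The 685 Kupffer-like cells with an Icos UMI (median depth 12297 UMIs) were set beside the 1721 without (8934 UMIs). Trac was in 0.438% against 0.465%, Cd3g in 0.730% against 0.232% and Cd3e in 2.04% against 0.872%. Clec4f, among the markers that named this class, was in 100% against 99.5%. A doublet score over 0.15 was found in 2.34% against 4.13%. The part of T cell RNA in this Icos level was not tested. Kupffer-like cells as a whole held 89.1 Icos UMIs per Ctla4 UMI (980 against 11), against 0.812 in T-like cells. Kupffer-like cells carried 35.1% and 38% of all Icos UMIs in the Ctrl and Tim3-KD macrometastasis libraries.

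Ikzf2 was highest in basophil or mast-like cells, at 252 CPM (227 to 280) against 110 CPM in T-like cells. By library it was at 131 CPM in AT Ctrl, 248 and 245 CPM in Ctrl and Tim3-KD micrometastasis, and 437 and 293 CPM in Ctrl and Tim3-KD macrometastasis, with no such cell in AT Tim3-KD. These values rest on 6 to 52 cells per library. A UMI was found in 80 of 143 cells. Of these 95% held Mcpt8, a basophil protease gene among the markers that named the class, against 93.7% of the 63 without Ikzf2. Cd3e was in 18.8% against 17.5%, Trac in 1.25% against 1.59%, and a doublet score over 0.15 was found in 35% against 39.7%. NK or ILC1-like cells (35.3 CPM) and progenitor-like cells (32.4 CPM) followed and their intervals overlapped. Nrp1 was at 1002 CPM in endothelial-like cells, 61.7 in Kupffer-like, 34.5 in plasmacytoid dendritic-like, 33.5 in macrophage-like, 31.3 in monocyte-like and 14.0 in T-like cells. Of 632 endothelial-like cells 559 held an Nrp1 UMI. Kdr, the main VEGF receptor gene of endothelium and a marker that named the class, was in 98.9% of those and 90.4% of the 73 without Nrp1. The sort was for CD45+ cells, so the endothelial-like cells were non-leukocytes that passed it.

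**Figure D1:**
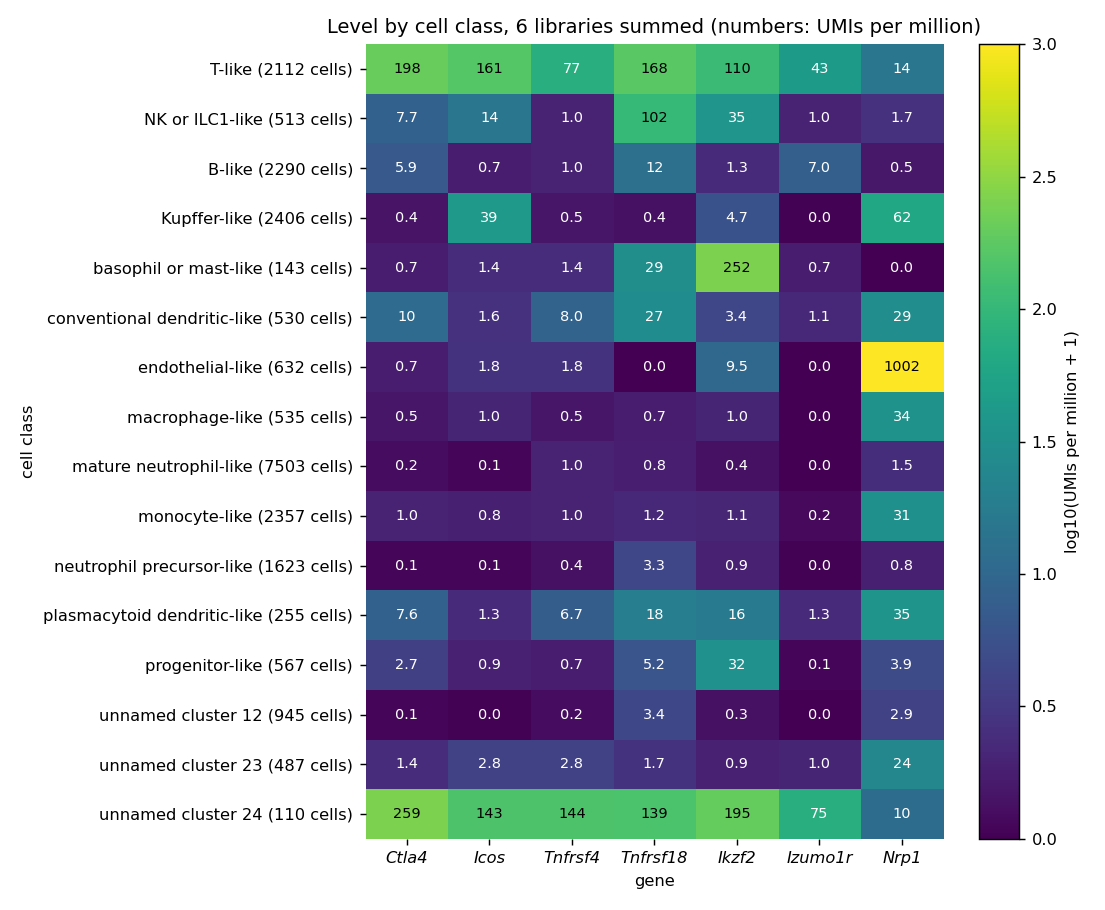
Level of each member in each cell class and unnamed cluster, summed over the 6 libraries. Rows are cell classes, columns are genes, color is log-scaled and the printed numbers are CPM. Among the named classes T-like cells are highest for Ctla4, Icos, Tnfrsf4, Tnfrsf18 and Izumo1r. Basophil or mast-like cells are highest for Ikzf2 (252 CPM) and endothelial-like cells for Nrp1 (1002 CPM).

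Over class and library combinations of at least 50 cells (59 points), the members fell into related patterns. The correlation of log2 levels was 0.953 for Ctla4 with Tnfrsf4, 0.933 for Ctla4 with Izumo1r, 0.860 for Ctla4 with Tnfrsf18 and 0.848 for Ctla4 with Icos. Nrp1 stood apart, at -0.205 to 0.124 with the other 6. Among all genes shared by the tables the closest were Il2ra, the interleukin-2 receptor alpha chain of regulatory and activated T cells, for Ctla4 (0.962), Tnfrsf4 (0.932) and Izumo1r (0.945). The closest were Ifi208 for Icos (0.896), Skap1 for Tnfrsf18 (0.931), Klk8 for Ikzf2 (0.891) and Cdc42bpb for Nrp1 (0.944). The points share libraries and depth, and these correlations are descriptions of where the genes were counted.

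The first comparison asked how the members differed between Tim3-KD and Ctrl among all CD45+ cells. In bulk sums of this kind, fewer cells of a type and less RNA per cell cannot be told apart. In AT, 4 of 7 members (Ctla4, Icos, Izumo1r and Nrp1) were at least 2-fold higher in Tim3-KD (34.0% of all 4485 genes tested were) and none was 2-fold lower (9.39%). The number higher was 2 of 7 under trimmed-mean scaling (19.2% of genes), 1 of 7 as a mean over cells (25.8%), and 3 of 7 without cells over the doublet score (35.7%) or without unnamed cluster 24, which had B and T markers (34.0%). In micrometastasis all 7 ratios were below 1 but none was past 2-fold (18.2% of genes were 2-fold lower and 0.749% higher), whereas 4 of 7 were 2-fold lower without cells over the doublet score (22.6% of genes). In macrometastasis Nrp1 alone was past 2-fold, and it was lower (10.6% of genes lower, 2.27% higher). The median log2 ratio of all genes was itself 0.59 in AT, -0.43 in micrometastasis and -0.26 in macrometastasis, against 1.27, -0.66 and 0.21 for the members.

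Icos was at 8.85 and 37.5 CPM in Ctrl and Tim3-KD AT, 9.50 and 5.04 CPM in micrometastasis, and 20.9 and 18.5 CPM in macrometastasis. Its ratio of Tim3-KD over Ctrl was 4.24 (3.57 to 5.04) in AT, 0.530 (0.465 to 0.605) in micrometastasis and 0.885 (0.811 to 0.966) in macrometastasis. It was highest in AT Tim3-KD and lowest in Tim3-KD micrometastasis. In AT the Icos ratio was 2.80 under trimmed-mean scaling and 1.78 as a mean over cells, short of 2-fold. Kupffer-like cells held 28.6% of the Icos UMIs of AT Tim3-KD against 6.27% in AT Ctrl. Ctla4 was at 9.83 and 23.7 CPM in AT, 11.5 and 5.99 CPM in micrometastasis, and 15.2 and 17.9 CPM in macrometastasis, with ratios of 2.41 (1.98 to 2.92), 0.519 (0.460 to 0.585) and 1.18 (1.07 to 1.30). Few cells carried the AT value, where 5 cells held 51.8% of the 168 Ctla4 UMIs of Tim3-KD and 36.5% of the 301 of Ctrl. The 2 Tim3-KD cells of cluster 24 alone held 47 Ctla4 UMIs, and without that cluster the AT ratio was 1.78 (1.42 to 2.20). It was 1.79 without cells over the doublet score, 1.59 under trimmed-mean scaling and 1.39 as a mean over cells. Tnfrsf18 had ratios of 1.62 (1.34 to 1.96), 0.634 (0.573 to 0.701) and 0.886 (0.803 to 0.978) in the same order of sites, and Izumo1r of 2.77 (1.95 to 3.90), 0.663 (0.516 to 0.852) and 1.27 (1.03 to 1.58). The AT ratio of Izumo1r was 1.83 under trimmed-mean scaling and 1.30 as a mean over cells, both short of 2-fold. The AT Tim3-KD library, where these 4 genes were higher, differed in several classes at once: T-like cells were 22.7% against 9.82%, B-like 36.2% against 14.4% and Kupffer-like 19.6% against 1.72%. B cell markers summed to 593 CPM in AT Ctrl and 2653 CPM in AT Tim3-KD. T-like cells held a smaller part of the UMIs in AT Tim3-KD than in AT Ctrl for 3 of these genes, 63.7% against 93.7% for Ctla4, 60.2% against 91.1% for Icos and 59.6% against 69.7% for Izumo1r, and a larger part for Tnfrsf18, 69.5% against 65.6%. The part of each class in these ratios was not tested.

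Tnfrsf4 and Ikzf2 had AT ratios below 1. Tnfrsf4 was at 5.58 and 3.81 CPM in AT, 3.81 and 3.54 CPM in micrometastasis and 6.88 and 7.96 CPM in macrometastasis. Ikzf2 was at 11.6 and 6.77 CPM, 10.1 and 6.98 CPM, and 13.5 and 17.2 CPM. Their AT ratios were 0.682 (0.437 to 1.03) and 0.586 (0.424 to 0.794). Under trimmed-mean scaling 3 ratios lay on the other side of 1, since it centers the bulk of genes: Tnfrsf4 in micrometastasis went from 0.930 to 1.26, Icos in macrometastasis from 0.885 to 1.06 and Tnfrsf18 in macrometastasis from 0.886 to 1.07.

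Nrp1 went in the same direction as the endothelial share. Its level was 11 and 51.1 CPM in AT, 18.8 and 10.2 CPM in micrometastasis, and 60.3 and 24.3 CPM in macrometastasis, giving ratios of 4.63 (3.98 to 5.38), 0.542 (0.494 to 0.594) and 0.403 (0.378 to 0.429). The endothelial-like share was 0.111% and 6.46% in AT, 1.53% and 0.739% in micrometastasis and 7.04% and 2.42% in macrometastasis, in the same order of Ctrl and Tim3-KD at each site. Summed endothelial markers went from 38.5 to 662 CPM in AT, from 133 to 53.9 CPM in micrometastasis and from 777 to 268 CPM in macrometastasis. Genes of Nrp1 partners and vascular receptors did the same. All 5 held in AT were at least 2-fold higher (34.0% of all genes were), with a median log2 ratio of 3.79 (all genes 0.59). In micrometastasis 4 of 5 were at least 2-fold lower (18.2% of genes), with a median of -1.44 (all genes -0.43). All 6 held in macrometastasis were at least 2-fold lower (10.6% of genes), with a median of -1.96 (all genes -0.26). In macrometastasis Kdr, for example, was at 109.9 CPM (Ctrl) and 22.3 CPM (Tim3-KD). Within endothelial-like cells of macrometastasis the Nrp1 ratio was 0.751 (0.675 to 0.835), against 0.403 over all cells. The part of the endothelial share in the Nrp1 ratios was not tested.

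**Figure D2:**
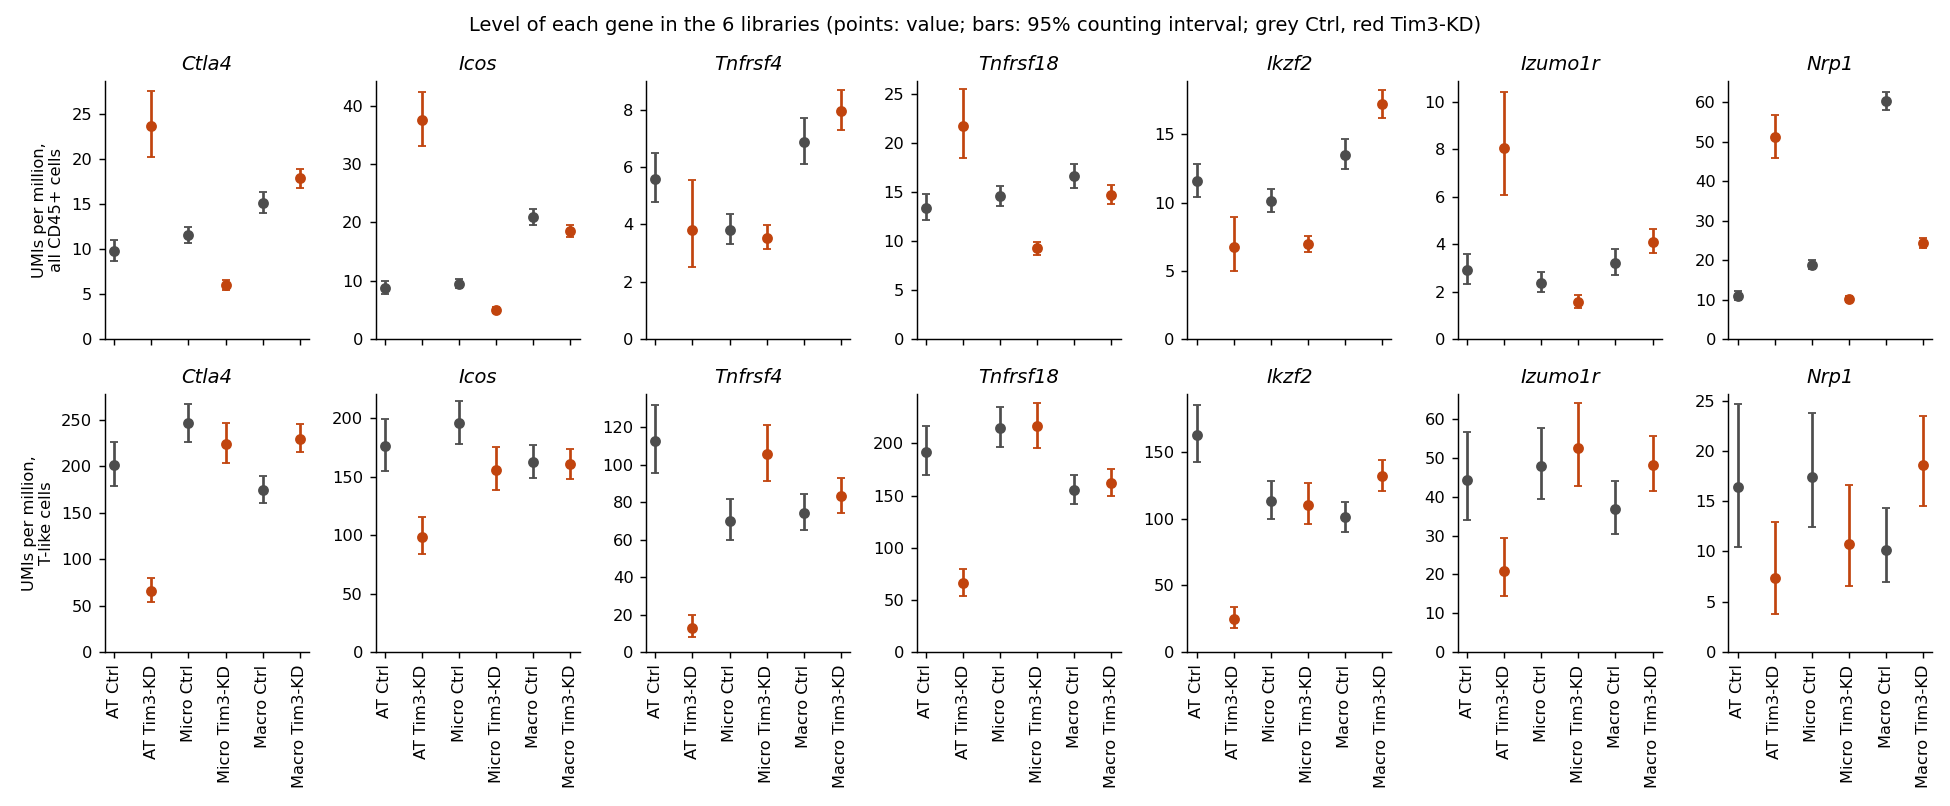
Level of each member in CPM in the 6 libraries, over all CD45+ cells (top row) and over T-like cells (bottom row), with 1 column per gene. Points are libraries, 1 per group, and bars are 95% Poisson intervals that cover counting error only. Over T-like cells the AT Tim3-KD library is the lowest of the 6 for all 7 genes, whereas over all CD45+ cells it is the highest for Ctla4, Icos, Tnfrsf18 and Izumo1r.

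The second comparison asked the same within T-like cells, where the share of T cells no longer enters. In AT all 7 ratios were below 1 and 6 of 7 members were at least 2-fold lower in Tim3-KD (14.2% of 3207 genes tested were 2-fold lower and 6.52% higher). The direction thus turned over for Ctla4, Icos, Tnfrsf18, Izumo1r and Nrp1, whereas Tnfrsf4 and Ikzf2 were below 1 over all CD45+ cells too. The members' median log2 ratio was -1.54, against -0.33 for all genes. Under trimmed-mean scaling that median was -1.22, and Izumo1r and Nrp1 fell short of 2-fold. In micrometastasis no member was past 2-fold (6.18% of genes lower, 4.18% higher) and the members' median was -0.04 against -0.09. None was past 2-fold in macrometastasis either (3.62% lower, 3.11% higher), where the median was 0.38 against 0.05.

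In T-like cells of AT, Ctla4 was at 201 CPM for Ctrl and 66.0 CPM for Tim3-KD, with 246 and 224 CPM in micrometastasis, and 174 and 230 CPM in macrometastasis. The AT Tim3-KD library was the only one under 100 CPM. The ratio was 0.328 (0.260 to 0.411) in AT from 282 and 107 UMIs, 0.911 (0.801 to 1.04) in micrometastasis and 1.32 (1.18 to 1.47) in macrometastasis. Icos, its costimulatory neighbor, differed less, at 176 and 98.7 CPM, 196 and 156 CPM, and 163 and 161 CPM, with ratios of 0.559 (0.456 to 0.685), 0.798 (0.686 to 0.927) and 0.988. It was the only member short of 2-fold in AT.

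Tnfrsf4 had the smallest AT ratio. It was at 113 and 12.9 CPM in AT T-like cells (158 and 21 UMIs), 70.2 and 106 CPM in micrometastasis, and 74.5 and 83.2 CPM in macrometastasis. The ratio was 0.115 (0.0691 to 0.182) in AT and 1.51 (1.22 to 1.87) in micrometastasis, so OX40 was lower in Tim3-KD at one day 3 site and higher at the other, and it was 1.12 (0.941 to 1.33) in macrometastasis. The neighboring Tnfrsf18 was at 192 and 66.0 CPM, 215 and 216 CPM, and 155 and 162 CPM, with an AT ratio of 0.343 (0.272 to 0.431) and ratios of 1.01 and 1.04 in the lesions.

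Ikzf2 was at 163 and 24.7 CPM in AT (228 and 40 UMIs), 113 and 111 CPM in micrometastasis, and 101 and 132 CPM in macrometastasis. Its ratios were 0.152 (0.105 to 0.213), 0.976 and 1.30 (1.13 to 1.51). Helios transcripts in T-like cells were thus lower in AT Tim3-KD than in any other library. The less abundant surface genes had wider intervals. Izumo1r was at 44.3 and 21.0 CPM, 47.9 and 52.6 CPM, and 36.8 and 48.2 CPM, with ratios of 0.474 (0.302 to 0.731), 1.1 and 1.31 (1.03 to 1.67), and Nrp1 was at 16.4 and 7.40 CPM, 17.4 and 10.7 CPM, and 10.1 and 18.6 CPM, with ratios of 0.451 (0.204 to 0.943), 0.616 (0.341 to 1.08) and 1.83 (1.19 to 2.88). The last of these was at 0.609 when T cells were called one by one and at 0.845 (0.411 to 1.74) among T-like cells with an Il2ra UMI.

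The AT result depended on how T cells were taken. When cells were called one by one from T cell receptor and Cd3 transcripts (217 and 115 cells in AT), 2 of 7 members were at least 2-fold lower, Tnfrsf4 (0.156) and Ikzf2 (0.244), where 12.8% of genes were 2-fold lower and 11.3% higher. Ctla4 was then at 0.580, Tnfrsf18 at 0.580, Izumo1r at 0.590 and Icos at 0.857, and Nrp1 was on the other side at 1.16. Among T-like cells with an Il2ra UMI (37 and 20 cells), 3 of the 6 members with 20 UMIs or more were at least 2-fold lower (16.5% of genes lower, 13.8% higher), Tnfrsf4 at 0.188, Ikzf2 at 0.310 and Tnfrsf18 at 0.343, whereas Izumo1r was at 1.34 (0.620 to 2.91). Nrp1 rested on 6 and 2 UMIs there (0.418, 0.0413 to 2.34). Tnfrsf4 ranged from 0.0596 to 0.188 and Ikzf2 from 0.0870 to 0.310 over 12 alternatives.

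**Figure D3:**
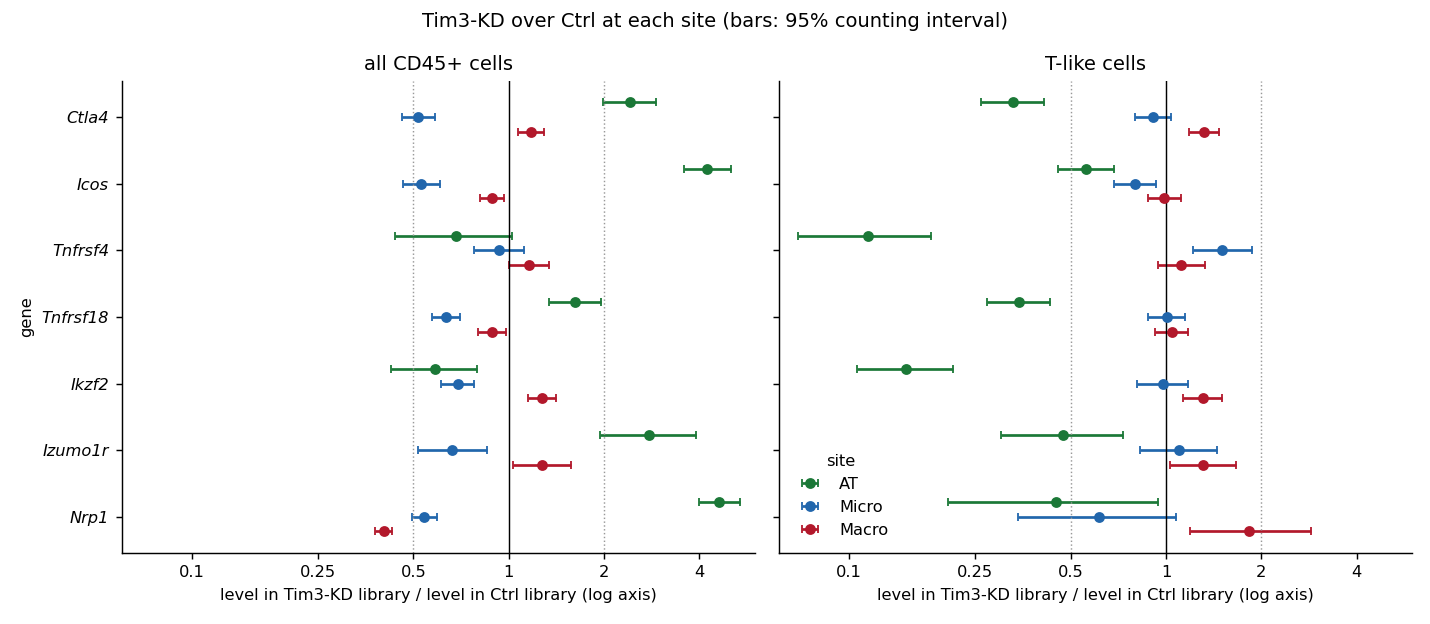
Ratio of Tim3-KD over Ctrl for each member at each site, over all CD45+ cells and over T-like cells; the axis is logarithmic, points are ratios of CPM between 1 library and 1 library, bars are 95% intervals for counting error only, and dotted lines mark 2-fold. In AT the T-like ratios lie between 0.115 and 0.559, on the opposite side of 1 from the all-cell ratios of Ctla4, Icos, Tnfrsf18, Izumo1r and Nrp1.

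The makeup of the T-like cells differed between libraries. Cluster 11 (1044 cells led by Il7r, Lef1, Trbc2 and Cd28) held 45.8% of AT Ctrl and 64.2% of AT Tim3-KD T-like cells, and cluster 13 (644 cells led by Xcl1, Ifng, Il2rb and Cxcr6) held 50.3% and 35.0%. Cluster 16 (424 cells led by Cd8b1, Cd8a and Ccl5) held 21.9% of Ctrl and 40.7% of Tim3-KD micrometastasis, 16.3% and 18.2% of macrometastasis, and at most 3.95% of either AT library. In cluster 11 the AT ratio was 0.0773 for Tnfrsf4, 0.0790 for Ikzf2, 0.123 for Tnfrsf18, 0.236 for Ctla4, 0.408 for Izumo1r, 0.415 for Nrp1 and 0.647 for Icos (14.4% of genes 2-fold lower, 10.6% higher). In cluster 13 Ctla4 (1.01) and Tnfrsf18 (1.016) were near 1, and Tnfrsf4 (0.355), Ikzf2 (0.399), Icos (0.530) and Izumo1r (0.688) were below it, Icos further than in cluster 11. Micrometastasis went the other way in cluster 11, which held 51.5% of Ctrl and 24.2% of Tim3-KD T-like cells there: Tnfrsf4 was at 2.54 (1.99 to 3.25), Tnfrsf18 at 1.97 (1.64 to 2.37), Izumo1r at 1.93 (1.34 to 2.79) and Ctla4 at 1.28 (1.06 to 1.53), with 7.23% of genes 2-fold higher and 10.5% lower. In the other micrometastasis clusters Tnfrsf18 was at 0.543 (0.394 to 0.740) in cluster 13 and Ctla4 at 0.761 (0.630 to 0.920) in cluster 16, so the T-like totals near 1 joined clusters with opposite ratios. In cluster 11 of macrometastasis Ikzf2 (1.66, 1.38 to 2.01), Ctla4 (1.51, 1.32 to 1.73) and Nrp1 (2.27, 1.37 to 3.88) were above 1 (3.01% of genes 2-fold higher, 4.24% lower).

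Markers of other classes moved within the AT T-like cells. Kupffer markers summed to 18.6 CPM (Ctrl) and 101 CPM (Tim3-KD), with 10 of 11 at least 2-fold higher, 4 of them at 0 in Ctrl and 1 at 0 in Tim3-KD. B cell markers went from 166 to 68.4 CPM, with 6 of 9 at least 2-fold lower. The 8 neutrophil precursor markers summed to 131 CPM in Ctrl and were all at 0 in Tim3-KD. The T cell markers themselves went from 6810 to 4537 CPM, with 1 of 12 at least 2-fold lower, and the CD8 T cell list from 4541 to 2285 CPM. Median depth was 7299 UMIs in AT Ctrl and 12505 in AT Tim3-KD T-like cells, and 11.3% and 14.6% of them had a doublet score over 0.15. The part of these differences in the members' ratios was not tested, apart from the alternatives given.

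When T-like and NK or ILC1-like cells were clustered again, also without the members, 12 sub-clusters resulted and sub-cluster 7 had the highest levels of 6 of the 7 members. Its 259 cells were led by Ass1, Ifi27l2a, Trp53inp1, Cd5, Rora, Cd4, Maf and Slamf6, with 542 CPM of Cd3e, 139 of Cd4, 90.2 of Il2ra and 19.8 of Cd8a. Ctla4 was at 707 CPM there, Tnfrsf18 at 454, Icos at 403, Ikzf2 at 385, Tnfrsf4 at 332, Izumo1r at 160 and Nrp1 at 55.3 CPM. The exception was Nrp1, which was at 60.7 CPM in sub-cluster 11, a set of 16 cells with endothelial markers. Sub-cluster 7 held 41.7% of the Ctla4 UMIs of T-like and NK or ILC1-like cells, 50.6% of Tnfrsf4, 45.3% of Nrp1, 43.8% of Izumo1r, 38.5% of Ikzf2, 29.0% of Icos and 28.1% of Tnfrsf18. A UMI was found in 69.9% of its cells for Ctla4, 80.3% for Icos, 73.7% for Tnfrsf18, 64.1% for Tnfrsf4, 58.3% for Ikzf2, 46.3% for Izumo1r and 23.2% for Nrp1.

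The other sub-clusters carried subsets of the members. Sub-cluster 10 (366 cells led by Cd8b1, Cd8a and Havcr2, the gene of TIM-3) had 278 CPM of Ctla4, 136 of Icos, 135 of Tnfrsf18 and 67.1 of Tnfrsf4. The dividing sub-cluster 6 (108 cells with Ube2c, Birc5 and Mki67 among the leading genes) had 284 CPM of Ctla4, 155 of Icos, 155 of Ikzf2 and 123 of Tnfrsf4. Sub-cluster 2 (64 cells led by Tmem176a, Blk and Tmem176b) had 358 CPM of Icos with only 63.1 of Ctla4, and no UMI of Tnfrsf4 or Izumo1r (upper limit 10.6 CPM each). Sub-cluster 5 (459 cells led by Art2a, Socs2, Ckb and Cxcr6) likewise had Icos (225 CPM) and Tnfrsf18 (167 CPM) with little Ctla4 (25.4 CPM) and Tnfrsf4 (3.41 CPM). Sub-cluster 1 (142 cells led by Cd7, Xcl1 and Cd160) had 203 CPM of Tnfrsf18 and 146 of Ikzf2 with 28.9 of Ctla4. In sub-cluster 3 (435 cells with Igfbp4, Lef1 and Ccr7 among the leading genes), which had naive T cell genes, Ctla4 was at 35.1, Icos at 39.8, Tnfrsf4 at 19.5 and Tnfrsf18 at 78.3 CPM.

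**Figure D4:**
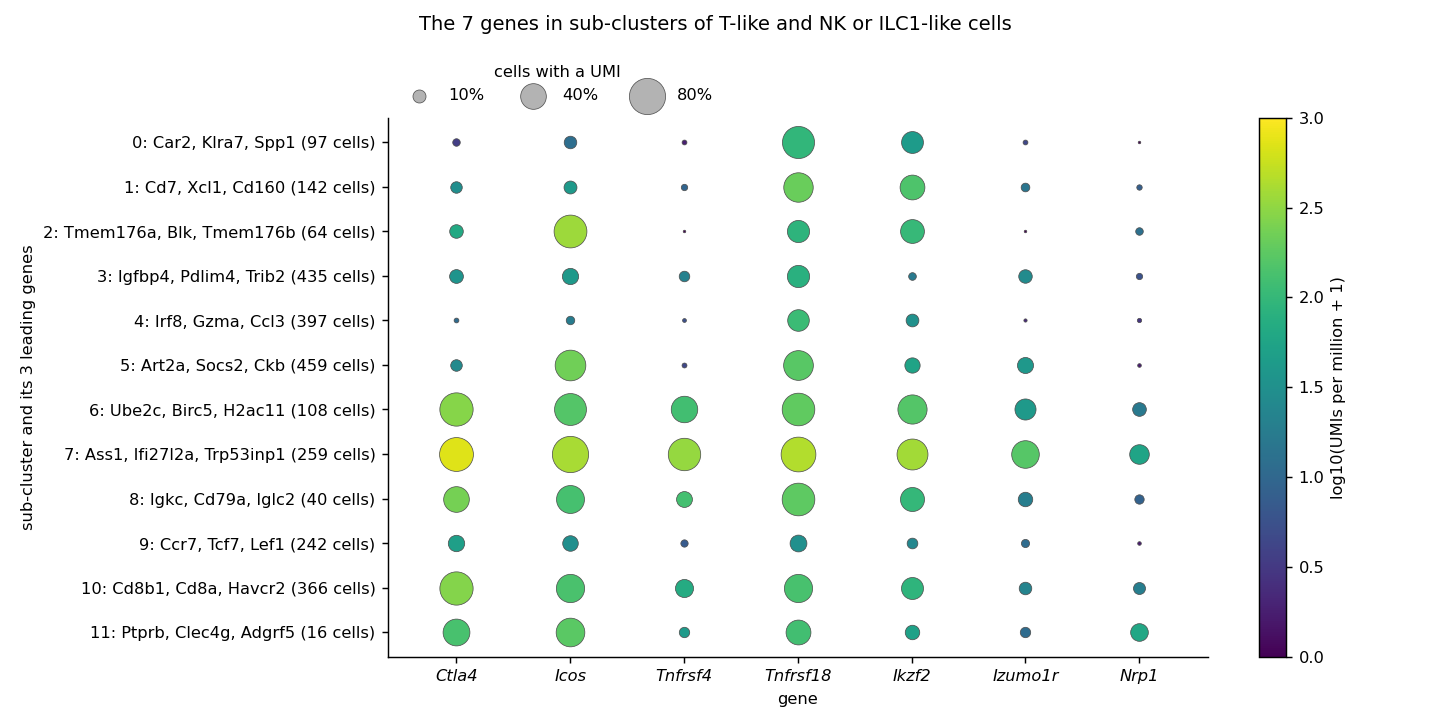
Members in the 12 sub-clusters of T-like and NK or ILC1-like cells, summed over the 6 libraries; dot area is the percent of cells with a UMI and color is the level on a log10(CPM + 1) scale. Sub-cluster 7, made without these genes, is highest for Ctla4, Icos, Tnfrsf4, Tnfrsf18, Ikzf2 and Izumo1r, and Icos is also high in sub-cluster 2 (358 CPM), where Tnfrsf4 and Izumo1r were not detected.

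Within sub-cluster 7 the AT ratios of Ctla4, Ikzf2 and Tnfrsf4 were below 1 and the macrometastasis ratios of Ctla4 and Ikzf2 were above it. The sub-cluster held 28 Ctrl and 18 Tim3-KD cells of AT, 57 and 32 cells of micrometastasis and 60 and 64 cells of macrometastasis. Ctla4 was at 706 and 313 CPM in AT, 925 and 831 CPM in micrometastasis, and 514 and 884 CPM in macrometastasis, with ratios of 0.444 (0.329 to 0.592), 0.899 and 1.72 (1.44 to 2.06). Ikzf2 was at 459 and 106 CPM, 448 and 408 CPM, and 239 and 558 CPM, with ratios of 0.231 (0.140 to 0.364), 0.911 and 2.33 (1.82 to 3.02). Both genes were thus lowest in AT Tim3-KD, and among Ctrl libraries lowest in macrometastasis. Tnfrsf4 was at 493 and 73.7 CPM in AT (0.149, 0.0826 to 0.253), and its ratio was 1.36 (0.966 to 1.9) for micrometastasis and 1.29 (1.00 to 1.66) for macrometastasis. Icos stayed near 1 at every site, at 0.889 (0.637 to 1.24), 0.988 and 1.06 (0.851 to 1.31). In macrometastasis Izumo1r (1.9, 1.31 to 2.80), Nrp1 (2.09, 1.01 to 4.66) and Tnfrsf18 (1.31, 1.05 to 1.64) were higher too. The other macrometastasis sub-clusters went both ways. Ctla4 was at 1.60 (1.28 to 2.00) in sub-cluster 10 and 3.23 (1.70 to 6.55) in sub-cluster 9, but at 0.169 (0.0606 to 0.412) in sub-cluster 5 and 0.449 (0.211 to 0.912) in sub-cluster 3. Ikzf2 was at 1.57 (1.07 to 2.33) in sub-cluster 10, 0.493 (0.305 to 0.796) in sub-cluster 5 and 0.353 (0.143 to 0.798) in sub-cluster 3. In the dividing sub-cluster 6 Tnfrsf4 was at 0.523 (0.332 to 0.804) and Tnfrsf18 at 0.582 (0.405 to 0.825).

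Members were found together in the same cells. A UMI of Ctla4 was found in 80.2% of the 334 T-like cells with Tnfrsf4 and in 22.1% of those without, and in 49.3% against 12.8% after each cell was thinned to 1500 UMIs. The same 334 cells contained Tnfrsf18 in 79.3%, Icos in 74.9% and Ikzf2 in 65.3% of cases. Among the 122 cells with Nrp1, Ctla4 was in 78.7% against 28.4%, although the Nrp1 level was far higher in endothelial-like cells (1002 CPM) than in T-like cells (14.0 CPM). The pairing was looser for Icos, with Ctla4 in 46.0% of 903 cells against 20.3%, and for Tnfrsf18, with 41.0% of 974 cells against 23.0%. Cells with Tnfrsf4 were deeper, with a median of 6755.5 UMIs against 5055.

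At least 4 of the 7 members were detected in 351 of 2112 T-like cells (16.6%, 15.1% to 18.3%), and 27 cells held all 7. Of these 351 cells 167 lay in sub-cluster 7, 85 in sub-cluster 10 and 51 in sub-cluster 6. By library the share was 15.8% in Ctrl and 9.76% in Tim3-KD AT, 15.1% and 18.8% for micrometastasis, and 17.0% and 17.9% for macrometastasis. The AT intervals (10.8% to 22% and 5.14% to 16.4%) overlapped. Cells with none of the members were 15.3% of AT Ctrl (27 of 177) and 41.5% of AT Tim3-KD (51 of 123), the highest share of the 6 libraries in spite of its greater depth.

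After thinning to 1500 UMIs per cell, which no T-like cell fell short of, the share of AT T-like cells with a UMI went from 13% in Ctrl to 6.50% in Tim3-KD for Ctla4, from 7.34% to 2.44% for Tnfrsf4, from 20.9% to 10.6% for Tnfrsf18 and from 14.1% to 4.88% for Ikzf2. Unthinned, those shares were 26.0% and 17.1%, 16.9% and 5.69%, 53.1% and 32.5%, and 31.6% and 13%. In micrometastasis and macrometastasis Ctla4 was found in a larger thinned share of Tim3-KD cells, 20.2% against 14.8% and 17.9% against 12.3% (unthinned 40.2% against 31.5% and 32.3% against 28.9%). In micrometastasis the CPM of Ctla4 went the other way (224 against 246), so no order is read there. B-like cells, which should lack most of these genes, had 0% to 1.41% of cells with Ctla4 after the same thinning, 0% to 0.387% with Tnfrsf4 and 0.387% to 2.82% with Tnfrsf18, from median depths of 3484 to 9590 UMIs against 3945 to 12505 in T-like cells. The thinned Nrp1 share of T-like cells was 0.565% to 2.41%, too low to read a change from.

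**Figure D5:**
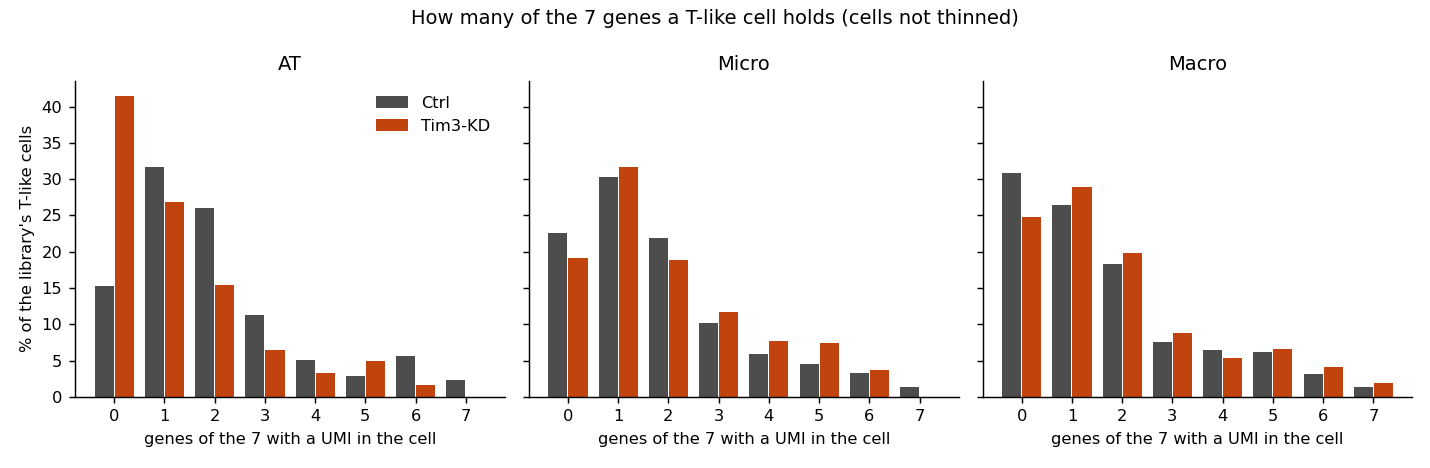
Percent of T-like cells in each library with a UMI of 0 to 7 of the members, without thinning. AT Tim3-KD has the tallest bar at 0 members (41.5%, against 15.3% in AT Ctrl), and in every library fewer cells hold 4 or more (9.76% to 18.8%) than hold fewer.

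Related gene lists in AT T-like cells gave the setting for the members. Of 10 other costimulatory receptors 8 were held and counted at 20 UMIs or more, with 6 intervals below 1 (24.0% of all genes tested had one). Their median log2 ratio was -0.54 (all genes -0.33), and 1 gene was at least 2-fold lower (14.2% of all genes were). That gene was Tnfrsf9 (4-1BB, another TNF-receptor family member), at 0.141 (0.0577 to 0.30), and Cd28 was at 0.622 (0.539 to 0.718). Of 9 NF-kB and TRAF genes that act downstream of TNF receptors 5 were counted, with a median of -0.91. Traf1 (0.414) and Traf3 (0.463) were at least 2-fold lower (14.2% of all genes were). Regulatory T cell genes were mostly missing from the tables, with 5 of 17 held and 3 counted, of which Tnfrsf1b (TNF receptor 2) was at 0.398 and Il2ra at 0.691 (0.454 to 1.05). The 5 coinhibitory receptors counted, of 11 listed, had a median of -0.63. Naive T cell genes went the other way, with 6 of 8 intervals above 1 (7.83% of all genes) and a median of 0.41, led by Klf2 (2.22, 1.93 to 2.57), Ccr7 (1.5) and Tcf7 (1.46), which keep T cells recirculating or undifferentiated. Of the members' own ligands 5 of 11 were held and only Tgfb1 reached 20 UMIs (1.97, 1.11 to 3.64). Other ligands of the families had 3 genes counted with a median of -0.21, and the Nrp1 partners had none counted.

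In the lesions the naive list differed most at micrometastasis. There 5 of 7 naive T cell genes were at least 2-fold lower in Tim3-KD (6.18% of all genes were), such as Tcf7 (0.370) and Ccr7 (0.442). Their median was -1.18 (all genes -0.09). Coinhibitory receptors had a median of 0.22, with Havcr2 at 2.62 (1.83 to 3.81). Il2ra was at 1.37 (1.06 to 1.77) and Tnfrsf9 at 1.41 (1.13 to 1.77), on the same side as Tnfrsf4. In the same cells macrophage markers summed to 129 and 342 CPM (3 of 5 at least 2-fold higher), Kupffer markers to 53.6 and 131 CPM (3 of 11 higher and 3 lower), and 10.8% and 21.4% of cells had a doublet score over 0.15. Their part in these ratios was not tested. In macrometastasis no costimulatory receptor was past 2-fold, 5 of 7 intervals were above 1 (13.6% of all genes had one, median 0.25, all genes 0.05) and Cd28 was at 1.19 (1.09 to 1.30). The regulatory list there had 1 gene at least 2-fold lower (3.62% of all genes were), Areg (0.240, 0.144 to 0.387), the gene of amphiregulin. In these macrometastasis T-like cells B cell markers summed to 136 and 235 CPM in Ctrl and Tim3-KD (5 of 9 at least 2-fold higher), neutrophil precursor markers to 24.1 and 56.8 CPM (6 of 10 higher and 1 lower) and mature neutrophil markers to 85.6 and 27.5 CPM (5 of 6 lower), and 13% and 15.3% of cells had a doublet score over 0.15. Their part in the macrometastasis ratios of the members was not tested.

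The last comparison took the Ctrl libraries across sites, for which the recovered UMIs undo the separate scaling of the 3 tables. Over all CD45+ cells none of the members was past 2-fold between AT and micrometastasis at day 3 (15.1% of genes higher in micrometastasis, 0.244% lower). From micrometastasis to macrometastasis Icos (2.20, 1.98 to 2.45) and Nrp1 (3.20, 2.98 to 3.44) were at least 2-fold higher (22.7% of genes higher, 3.90% lower) and Tnfrsf4 was at 1.81 (1.51 to 2.17), where the median log2 ratio of all genes was 0.55. Within T-like cells the same ratios lay below 1 or near it: Icos was at 0.831 (0.730 to 0.945) and Nrp1 at 0.582 (0.354 to 0.95), Ctla4 at 0.708 (0.628 to 0.797), Tnfrsf18 at 0.723 (0.636 to 0.821) and Tnfrsf4 at 1.06, none past 2-fold (3.73% of genes higher, 2.46% lower). Kupffer-like cells went from 5.37% to 16.4% of cells and endothelial-like cells from 1.53% to 7.04% over the same step. Between the day 3 sites T-like Ctla4 was higher in micrometastasis (1.22, 1.06 to 1.42) and Tnfrsf4 (0.622, 0.496 to 0.780) and Ikzf2 (0.696, 0.580 to 0.835) were lower, again none past 2-fold (8.25% of genes higher, 3.82% lower). Day and lesion size cannot be told apart in the macrometastasis comparison.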

How the data were processed

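CD45+ liver cells were profiled with 10x 3' chemistry. Per the study's methods and the labels' processing notes, the authors trimmed reads with Trim Galore 0.4.3, aligned them with STAR 2.7.7a to GRCm38, counted exonic and intronic UMIs, filtered cells by UMIs, genes and mitochondrial share, removed doublets with scrublet and kept variable genes. The deposited values are scaled scores: log-normalized UMIs regressed on depth, scaled per gene over both libraries of a site and capped at 10. UMIs were recovered from these scores, as the planned count sums need counts. Of the recovered values 99.9968% to 99.9998% were whole within 0.05, and 0.144% to 0.160% of detected values were at the cap and set to the smallest number that reaches it. On simulated scores for AT (2345 cells, 4486 genes) 100% of detected values were recovered. The matrix genes hold 11.3% to 14.7% of all UMIs at the 3 sites.

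Cells were clustered with scanpy 1.11.5 (30 components, 15 neighbors, resolution 1) on 1635 genes held by all 3 tables, without the members. No further doublets were removed, and 9.05% of cells had a doublet score over 0.15. Median depth was 6300 to 10248 UMIs per cell. CPM were UMIs summed over a library's cells of a class per 1000000 of all their UMIs. Ratios carry exact conditional binomial intervals, and genes needed 20 UMIs over both libraries to enter the shares of genes past 2-fold. With 1 library per group no test was made, and no model over the 3 sites was fitted. Alternatives were trimmed-mean scaling, means over cells, filters on depth and doublets, other resolutions, other ways to take T cells, 1.5-fold and no UMI minimum. Correlations used log2 of CPM plus 10. Sub-clusters were described by their leading genes. Named genes were the 7 members, the leading gene of each correlation and genes of the companion lists past 2-fold or shown as examples. The members and lists were chosen with earlier results of these data known. Coordinates are from GENCODE and promoters from RefSeq. Python 3.11.15, numpy 2.4.6 and scipy 1.17.1 were used.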

Additional observations from a re-analysis of the deposited data

Results flagged for a closer look

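For several members the Tim3-KD over Ctrl ratio, with its counting interval, lay above 1 at one site and below 1 at another. The size of each contrast is given as the ratio at one site over the ratio at the other. With 1 library per group the difference between sites was not tested. Over all CD45+ cells, AT over micrometastasis came to 4.65 for Ctla4, 8.0 for Icos, 2.56 for Tnfrsf18 and 4.17 for Izumo1r. AT over macrometastasis came to 11.5 for Nrp1, and macrometastasis over AT to 2.17 for Ikzf2. Within T-like cells, macrometastasis over AT came to 4.02 for Ctla4, 8.61 for Ikzf2, 2.77 for Izumo1r and 4.07 for Nrp1, and micrometastasis over AT to 13.1 for Tnfrsf4. All 11 contrasts include the AT Tim3-KD library, with 542 cells and 123 T-like cells, and its part in them cannot be told apart from that of the site.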

How the results depend on the processing

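No paired analysis was possible because each group had 1 library. The planned comparison in Foxp3-positive cells was not run, since no table holds Foxp3. Added after seeing the data were T-like cells with an Il2ra UMI, without dividing and mixed sub-clusters, with the cluster of B and T markers, with equal cluster shares and without the 3 top cells of each member, and all CD45+ cells without that cluster. Over all CD45+ cells of AT, the number of members at least 2-fold lower went from 0 to 1 at 1.5-fold (13.7% of genes), 2 under trimmed-mean scaling (16.2%), 2 as a mean over cells (11.3%), 2 without cells over the doublet score (10.2%) and 1 with capped UMIs doubled (9.32%), and the number 2-fold higher went from 4 to 2 under trimmed-mean scaling (19.2%) and 1 as a mean over cells (25.8%), with 3 when cells over the doublet score (35.7%) or cluster 24 (34.0%) were left out. In micrometastasis the number lower went from 0 to 5 at 1.5-fold (37.5% of genes), 1 as a mean over cells (13%), 2 without cells under 3000 UMIs (17.4%), 4 without cells over the doublet score (22.6%) and 1 with capped UMIs doubled (18.4%), and the members' median log2 ratio from -0.66 to -0.22, -0.19 and -1.05 under trimmed-mean scaling, as a mean over cells and without cells over the doublet score. In AT T-like cells the number lower went from 6 to 2 when cells were called one by one. At 1.5-fold all members were lower (34.0% of genes). The trimmed-mean factor there was -0.318 in log2, which takes Izumo1r (log2 ratio -1.08) and Nrp1 (-1.15) short of 2-fold lower. The members' median went from -1.54 to -1.22 under that scaling. In micrometastasis T-like cells 1 member was lower at 1.5-fold (17.4% of genes) and 1 among cells with Il2ra (12.3%), and 1 was higher at 1.5-fold (11.5%). With equal cluster shares 1 was higher, but no share of genes is given for that setting, so the count cannot be weighed. In macrometastasis T-like cells 1 was higher at 1.5-fold (10.7% of genes), and the median went from 0.38 to -0.048 among cells with Il2ra. Without the UMI minimum, 7.12% of genes were 2-fold higher in micrometastasis T-like cells, and 8.22% lower and 5.26% higher in macrometastasis T-like cells. Macrometastasis over micrometastasis in Ctrl had 2 members higher over all cells and 0 over T-like cells, where Icos (0.831) and Nrp1 (0.582) were on the other side of 1. Also on the other side in AT T-like cells were Nrp1 (1.16, called one by one) and Izumo1r (1.34, with Il2ra). In macrometastasis Ctla4 (0.998), Tnfrsf4 (0.967), Tnfrsf18 (0.928) and Nrp1 (0.845) were so among T-like cells with Il2ra. When cells were called one by one, Tnfrsf18 (0.913) and Izumo1r (0.981) were so in micrometastasis, and Icos (1.13) and Nrp1 (0.609) in macrometastasis. The cause was not tested. Of 21 ratios in T-like cells, 9 stayed within their counting interval when cells were called one by one, 9 with Il2ra and 16 to 21 under each other alternative. Of 21 over all CD45+ cells, 2 did under trimmed-mean scaling, 2 as a mean over cells, 13 without cells over the doublet score, 20 without cluster 24 and 21 under each of the others. Equal cluster shares say nothing of AT, where cluster 16 was 1 Tim3-KD cell. Depth limits Nrp1 and Izumo1r in T-like cells most.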

Other observations

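An unnamed cluster of 110 cells, cluster 24, carried both B cell and T cell markers and was kept out of every class. Its levels were 259 CPM of Ctla4, 195 of Ikzf2, 144 of Tnfrsf4, 143 of Icos, 139 of Tnfrsf18 and 75.4 of Izumo1r, above those of T-like cells for Ctla4, Tnfrsf4, Ikzf2 and Izumo1r. In the AT Tim3-KD library 2 of its cells held 47 of the 168 Ctla4 UMIs, or 28.0%. Conventional dendritic-like cells of macrometastasis had 4.28 CPM of Ctla4 in Ctrl and 36.1 CPM in Tim3-KD (12 and 47 UMIs, ratio 8.45, 4.41 to 17.5), with Tnfrsf4 at a ratio of 3.45 (1.74 to 7.08) and Icos at 1 and 8 UMIs (17.3, 2.31 to 766). The Ctla4 UMIs came from 9 of 170 and 8 of 88 cells, and 29 of the 47 in Tim3-KD were in 1 cell. Of the 8 Tim3-KD cells, Cd3g was in 50% against 2.5% of the 80 without Ctla4, Cd3e in 25% against 1.25%, and 37.5% against 25% had a doublet score over 0.15. The part of T cell RNA in these values was not tested. In NK or ILC1-like cells of macrometastasis Tnfrsf18 was at 63.4 and 107 CPM, a ratio of 1.68 (1.16 to 2.42). These are values of single libraries.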
